A study of Rattus norvegicus with 10 samples.

Results

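The genes described here are the Prss and Tmprss serine proteases of the rat, measured in testes of Zucker rats. A gene was a member when its only symbol in the array's annotation was Prss or Tmprss followed by a number and at most 2 further characters, and 47 of the 18166 genes tested met this rule, 31 named Prss and 16 named Tmprss. Each member was read by 1 probe set. The rule used symbols alone and no measured value.

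Zucker rats become obese when they inherit a defective leptin receptor from both parents, written fa/fa. The 10 arrays held 4 under-developed testes and 4 normal testes of obese rats, and 2 normal testes of lean rats, all from sexually mature rats of 14 weeks per the labels. The labels of the lean rats also give the Zucker (fa/fa) model and the treatment text of the obese rats, which leaves the genotype of the lean rats unsettled. Replicates are named as biological, with no statement that they are separate animals, and the p-values below then measure the spread between samples, which may be technical.

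Most members share the trypsin fold. A serine protease of this kind is made as an inactive precursor and cuts proteins with a catalytic triad of histidine, aspartate and serine, and some members have lost part of the triad. Prss proteins are mostly secreted or tied to the membrane by a lipid anchor, and Tmprss proteins cross the membrane once with the protease outside the cell. In rodents a large subset is made in the testis by spermatocytes and spermatids, with several in the acrosome, the enzyme-filled cap of the sperm head. Others act in the gut, on epithelia, in blood cells or in the nervous system. By lists of roles, 10 members belonged to testis and sperm, 19 to epithelia, 6 to neural, stromal, eye and uterine tissue, 4 to digestion, 4 to blood cells and thymus, and 4 were in no list (Prss38, Prss47, Prss58 and Prss59).

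The under-developed arrays were unlike each other. Over all genes, the mean correlation with the 6 normal arrays was 0.856 for replicate 1, 0.946 for replicate 2, 0.731 for replicate 3 and 0.995 for replicate 4, so replicate 4 resembled the normal testes despite its label. Mean levels of 10 germ cell markers (Ddx4, Dazl, Sycp3, Sycp1, Piwil1, Spem1, Tnp1, Tnp2, Prm1 and Prm2) were 8.88, 11.09, 7.91 and 11.64 log2 units in under-developed replicates 1 to 4, against 11.67 to 11.75 in normal testes of obese rats and 11.67 to 11.68 in lean rats. Mean levels of 6 macrophage markers were 10.67, 9.49, 10.65 and 7.70 in the under-developed replicates, against 7.43 to 8.03 in normal obese testes and 7.22 to 7.74 in lean ones. Mean levels of 6 fibroblast and matrix markers were 9.24, 8.55, 9.46 and 7.18 in the under-developed replicates, against 6.96 to 7.50 in normal obese testes and 6.82 to 7.29 in lean ones. The part of cell make-up in these marker levels and in the results below was not tested. In whole tissue fewer cells of a type and less RNA per cell cannot be told apart.

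All values are deposited log2 expression values, in which 1 unit is a doubling. Differences were tested in 1 limma fit across all genes with Benjamini-Hochberg adjusted p-values and a threshold of 0.05. Over all 4 under-developed arrays, 0 of 47 members were called against normal obese testes, where 0.0% of all genes were called. The lowest adjusted p of a member was 0.0702. At an unadjusted p under 0.05, 13 members were lower and 3 were higher, against 22.3% of all genes lower and 24.4% higher. The same fit without under-developed replicate 4, an alternative added after its values were seen, called 14 members lower and 3 higher, where 26.4% of all genes were called lower and 29.6% higher. In it all 10 germ cell markers were also called lower, and all 6 macrophage and all 6 fibroblast and matrix markers higher. Both shares of members, 14 and 3 of 47, are read against these backgrounds, and the words fell and rose below refer to this fit without replicate 4. The median difference of the 47 members was −0.01 over all arrays, beside 0.06 over all genes, and −0.05 without replicate 4, beside 0.07 over all genes.

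**Figure D1:**
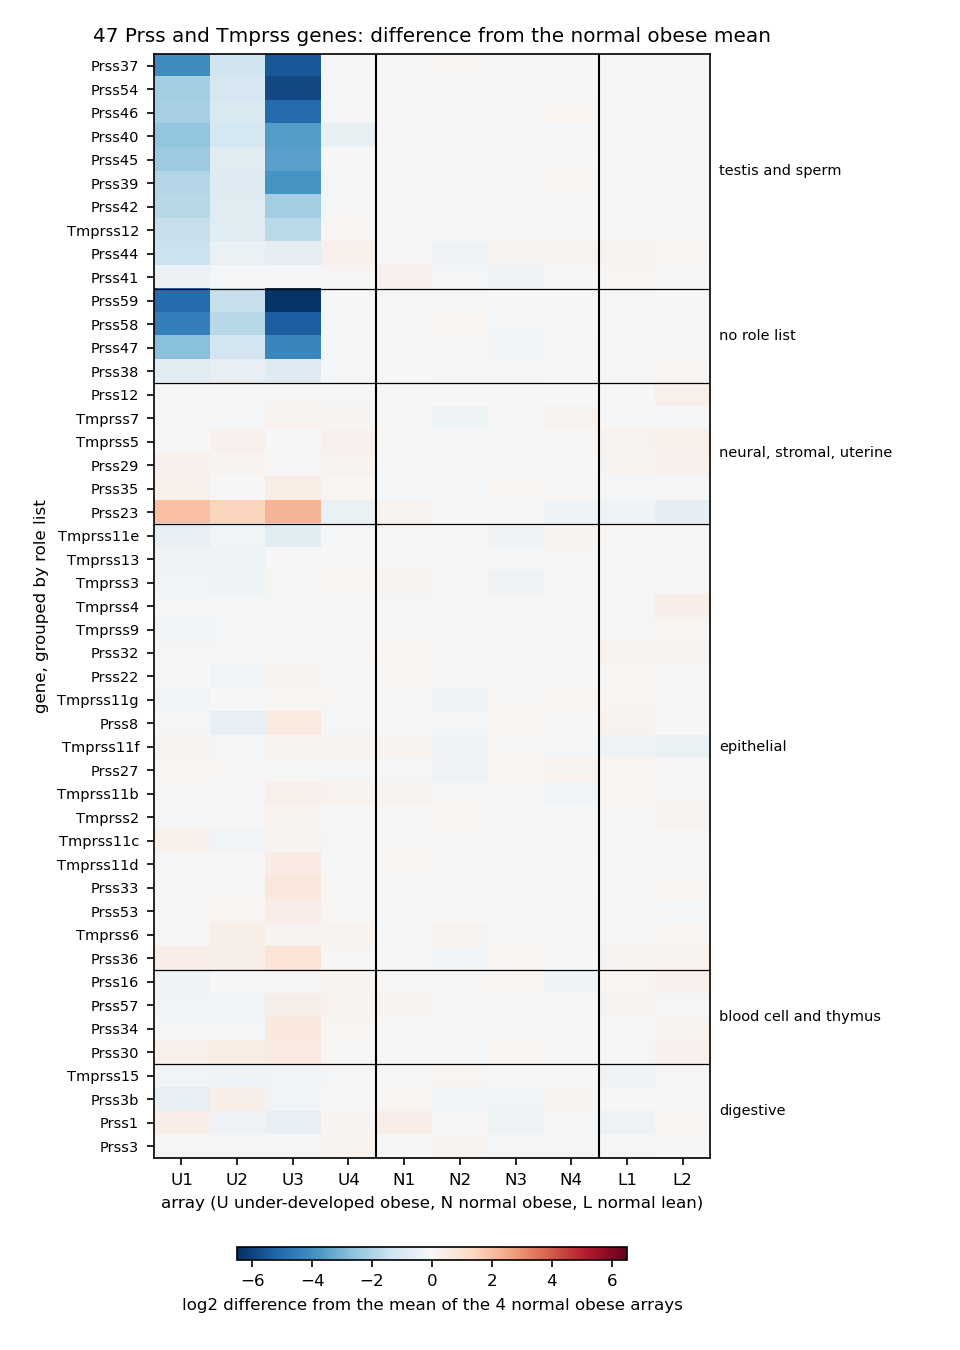
Log2 difference of each of the 47 members (rows, grouped by role list) from the mean of the 4 normal obese testes, in under-developed obese (U1 to U4), normal obese (N1 to N4) and normal lean (L1 and L2) arrays. Blue cells are lower and red cells higher, and the darkest blue cells lie in U3 and U1, in rows of the testis and sperm list and of Prss59, Prss58 and Prss47, while U4 is pale in every row.

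The falls differed in size. Of the 14 members that fell, 9 did so by at least 2 log2 units, a size reached with a call by 5.84% of all genes. All genes include dim ones, which have less room to fall. With only genes at or above the median level kept, 3993 of 9083 genes were called lower without replicate 4. Of the 14 members kept by that filter, 11 were called lower. Level here was the mean over all 10 arrays, 6 of them normal, so the filter favours genes high in normal testes. These counts therefore cannot show whether members fell more often than other genes of their level. In all 11 members lower by at least 1 log2 unit over replicates 1 to 3, replicate 3 was the lowest array, then replicate 1, then replicate 2, then replicate 4. The arrays had the same order in their correlation with normal arrays over all genes (0.731, 0.856, 0.946 and 0.995). The mean of the 10 germ cell markers had it too, so the order is not particular to these members. The share of all genes with this order was not counted. The SD of these 11 members over the 4 normal obese testes was 0.03 to 0.13.

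**Figure D2:**
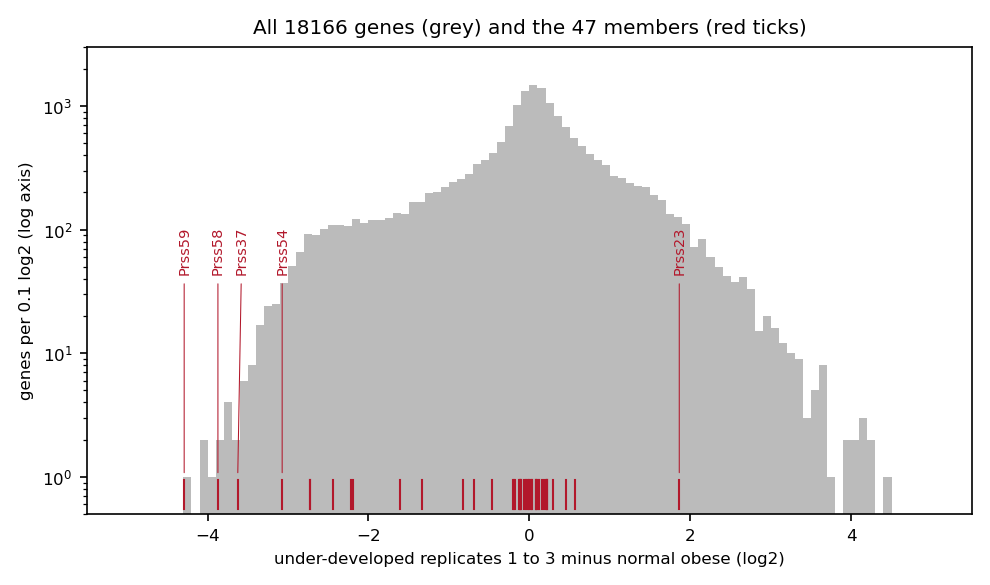
Histogram of the difference between under-developed replicates 1 to 3 and normal obese testes for all 18166 genes (grey, log2 on the horizontal axis, number of genes on a log vertical axis), with the 47 members as red ticks. Prss59 is at the lower end of the distribution at −4.29, Prss58 and Prss37 are near it, and most members lie near 0.

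Prss37, Prss58 and Prss59, all on chromosome 4, had the largest falls of the family. PRSS37 is an acrosomal protein that lacks the full catalytic triad, and in mouse it is needed for the maturation of the sperm surface protein ADAM3 and for sperm passage into the oviduct. Prss58 is also called trypsin X3, and no role is given here for it or for Prss59.

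Prss59 had levels of 6.34, 9.88, 5.01 and 11.39 in under-developed replicates 1 to 4, against 11.31, 11.44, 11.38 and 11.33 in normal obese testes and 11.27 and 11.34 in lean ones. Replicates 1 to 3 lay below all 6 normal arrays, and replicate 4 lay within the range of the normal obese ones. Prss59 averaged 8.15 ± 2.98 in under-developed and 11.36 ± 0.06 in normal obese testes (SD, n = 4 each), and limma gave a difference of −3.21 ± 1.22 (SE, adjusted p = 0.0776). Without replicate 4 the difference was −4.29 ± 0.93 (limma adjusted p = 0.00409), a 19.6-fold lower level. Prss59 ranked 1st of all 18166 genes in size of fall in both fits, and also in replicates 1 and 3 taken singly, while it ranked 191st in replicate 2.

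Prss58 had levels of 6.35, 8.96, 5.41 and 10.68 in under-developed replicates 1 to 4, against 10.78, 10.90, 10.67 and 10.75 in normal obese testes and 10.67 and 10.67 in lean ones. The first 3 under-developed arrays were below every normal array, and replicate 4 was among the normal ones. The difference was −2.93 ± 0.99 over all arrays (SE, limma adjusted p = 0.0703) and −3.87 ± 0.68 without replicate 4 (limma adjusted p = 0.00145). Prss58 ranked 5th of all genes in the fit without replicate 4, and 42nd in replicate 2, ahead of Prss59.

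Prss37 had levels of 7.52, 10.27, 6.03 and 11.53 in under-developed replicates 1 to 4, against 11.50, 11.70, 11.53 and 11.53 in normal obese testes and 11.50 and 11.60 in lean ones. Again replicates 1 to 3 were below every normal array and replicate 4 was not. The difference was −2.73 ± 1.03 over all arrays (SE, limma adjusted p = 0.0767) and −3.63 ± 0.79 without replicate 4 (limma adjusted p = 0.00433), a 12.3-fold lower level. Prss37 ranked 11th of all genes in size of fall.

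**Figure D3:**
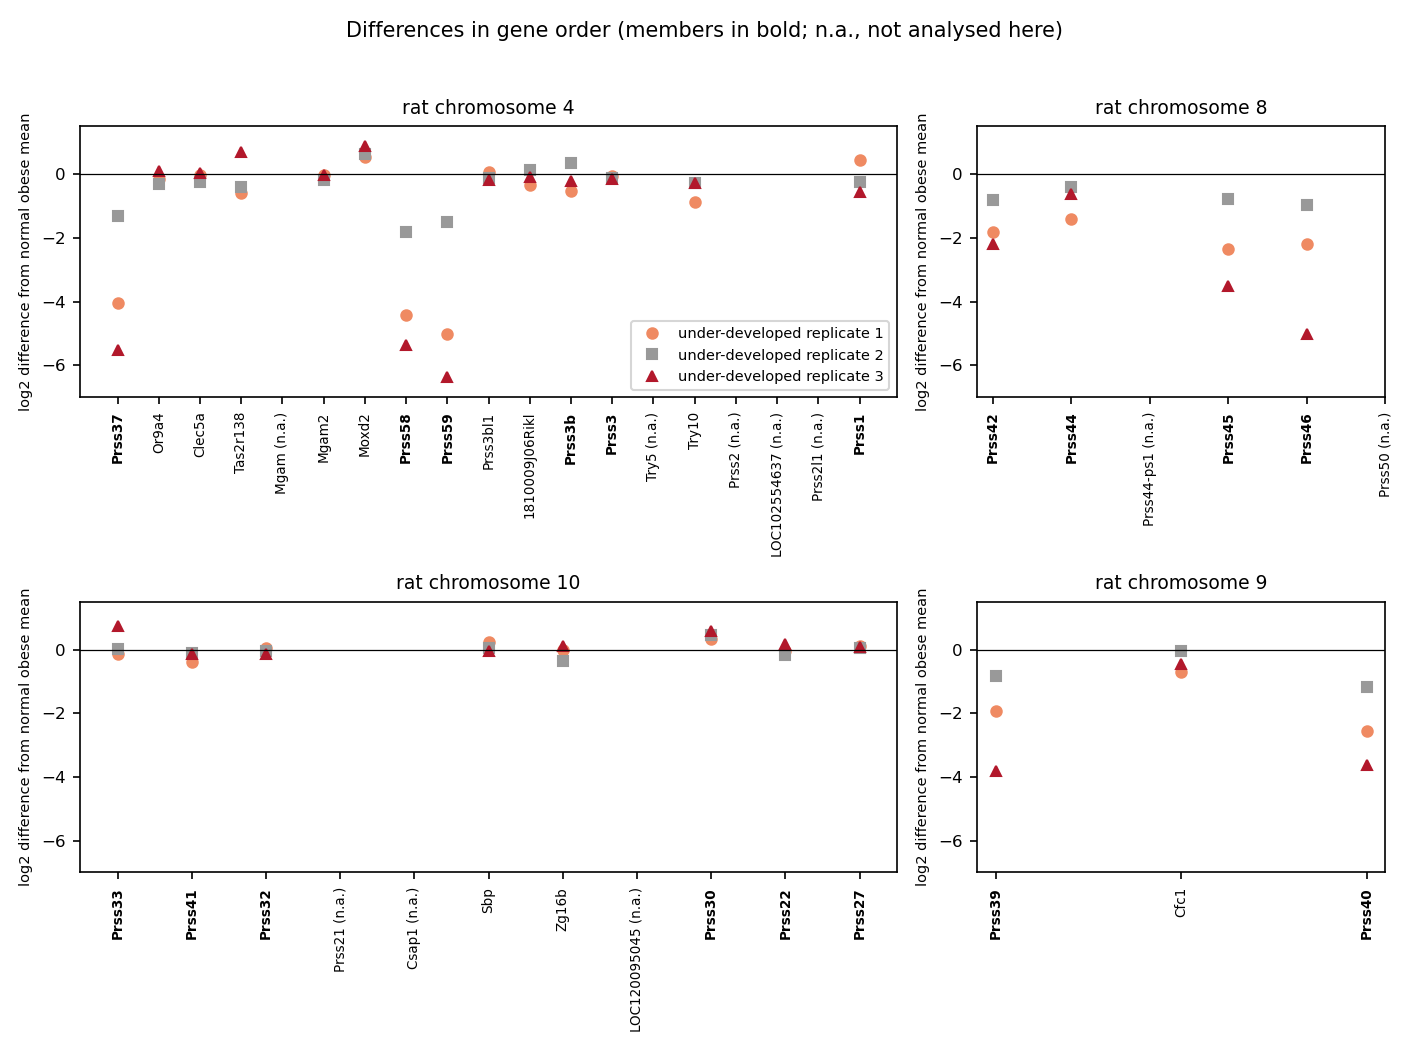
Log2 difference from the normal obese mean in under-developed replicates 1 to 3 (symbols) for members (bold) and neighbouring genes in their order on rat chromosomes 4, 8, 9 and 10; n.a. marks a gene not analysed here. On chromosome 4 Prss37, Prss58 and Prss59 lie far below genes between and beside them, and the members shown on chromosome 10 lie near 0.

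In the RefSeq gene order of assembly GRCr8, Prss58 and Prss59 are next to each other and Prss37 is separated from them by 6 protein-coding genes. Of these, 5 were measured (Or9a4, Clec5a, Tas2r138, Mgam2 and Moxd2), with differences of −0.60 to 0.88 in single under-developed replicates 1 to 3. Moxd2 rose by 0.69 (limma adjusted p = 0.000719, without replicate 4) and the other 4 did not pass the test, unlike the proteases on either side. Beyond Prss59 lie 10 protein-coding genes up to Prss1, the trypsin cluster. The 6 measured there, among them the members Prss3b, Prss3 and Prss1, differed by −0.89 to 0.43, and of these Try10 fell by 0.48 on the log2 scale (limma adjusted p = 0.0309, without replicate 4). Trypsin genes are close copies of each other, and how far their probes share signal was not tested.

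The 300 bases around the starts of these genes are shown as a description, and shared regulation was not tested. RefSeq promoter windows, from 250 bases before to 50 after the annotated start in GRCr8, were given for 36 of the 47 members and for all 11 members lower by at least 1 log2 unit. In the windows below, on the gene's strand from 5′ to 3′, capitals mark a 12-base run that Prss37 and Prss58 share, the MYB core letters TAACNG in Prss37, and the TATA letters, in reverse as TTTATA, in Prss59. The windows are chr4:70301207-70301506 for Prss37, chr4:70723598-70723897 for Prss58 and chr4:70737985-70738284 for Prss59, all on the minus strand.
Prss37: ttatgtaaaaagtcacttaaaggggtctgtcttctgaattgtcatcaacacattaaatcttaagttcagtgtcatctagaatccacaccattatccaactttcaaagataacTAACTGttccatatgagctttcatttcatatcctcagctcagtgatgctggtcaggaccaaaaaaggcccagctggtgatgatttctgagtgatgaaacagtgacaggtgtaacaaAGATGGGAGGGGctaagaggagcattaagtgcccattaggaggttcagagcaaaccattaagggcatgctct
Prss58: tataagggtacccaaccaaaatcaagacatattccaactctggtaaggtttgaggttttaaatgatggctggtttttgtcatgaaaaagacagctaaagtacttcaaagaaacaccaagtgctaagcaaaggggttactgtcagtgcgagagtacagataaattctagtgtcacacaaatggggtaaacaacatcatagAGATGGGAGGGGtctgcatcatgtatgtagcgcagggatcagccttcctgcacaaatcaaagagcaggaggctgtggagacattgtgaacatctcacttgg
Prss59: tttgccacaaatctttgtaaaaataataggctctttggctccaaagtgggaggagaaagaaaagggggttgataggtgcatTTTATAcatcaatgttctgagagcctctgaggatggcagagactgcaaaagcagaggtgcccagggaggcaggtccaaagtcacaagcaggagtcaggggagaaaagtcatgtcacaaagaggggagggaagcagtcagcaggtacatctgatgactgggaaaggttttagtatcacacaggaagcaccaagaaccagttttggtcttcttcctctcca

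The shared run, AGATGGGAGGGG, begins 22 bases before the start of Prss37 and 51 bases before that of Prss58. This was the longest run shared by any of the 55 pairs of windows of the 11 members, whose median longest run was 9 bases. The same letters were in 14 of 33469 rat windows, from 13 genes, or 0.042%. This share is no background for the match, since the run was picked from these windows as the longest. How long a run other sets of windows would share was not tested. A match describes these letters only.

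Prss54, Prss39 and Prss40 are proteins of the acrosome in mouse. PRSS54 lacks the complete catalytic triad, and PRSS39 and PRSS40, also called TESP1 and TESP2, were found as acrosomal proteases of mouse sperm.

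Prss54 had levels of 9.58, 10.75, 5.94 and 11.68 in under-developed replicates 1 to 4, against 11.82, 11.81, 11.81 and 11.88 in normal obese testes and 11.85 and 11.82 in lean ones. All 4 under-developed arrays were below all 6 normal arrays, replicate 4 by the least and replicate 3 by the most. The difference was −2.34 ± 1.03 over all arrays (SE, limma adjusted p = 0.106) and −3.07 ± 0.92 without replicate 4 (limma adjusted p = 0.0195). Prss54 ranked 13th of all genes in replicate 3 and 644th in replicate 1.

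Prss39 had levels of 8.54, 9.61, 6.63 and 10.32 in under-developed replicates 1 to 4, against 10.43, 10.40, 10.41 and 10.57 in normal obese testes and 10.44 and 10.50 in lean ones. Its under-developed and normal arrays did not overlap. The difference was −1.68 ± 0.66 over all arrays (SE, limma adjusted p = 0.0833) and −2.19 ± 0.56 without replicate 4 (limma adjusted p = 0.00937).

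Prss40 had levels of 6.86, 8.24, 5.79 and 8.94 in under-developed replicates 1 to 4, against 9.41, 9.46, 9.42 and 9.34 in normal obese testes and 9.35 and 9.30 in lean ones. All 4 under-developed arrays were below all 6 normal ones, and replicate 4, at −0.47 from the normal obese mean, was farther below than in any other member. The difference was −1.95 ± 0.58 over all arrays (SE, limma adjusted p = 0.0702) and −2.44 ± 0.46 without replicate 4 (limma adjusted p = 0.00201). Prss39 and Prss40 lie on chromosome 9 with 1 gene, Cfc1, between them, which differed by −0.71, −0.05, −0.46 and −0.01 in the 4 replicates and did not pass the test without replicate 4 (limma adjusted p = 0.0510).

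A run on chromosome 8 holds Prss42, Prss44, Prss45 and Prss46, which in mouse are testis-specific proteases named TESSP, and mouse PRSS42 takes part in the progress of meiosis. Prss44-ps1 and Prss50, in the same run, were not analysed here. All 4 measured genes of this run fell, by unequal amounts.

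Prss46 had levels of 9.45, 10.67, 6.61 and 11.51 in under-developed replicates 1 to 4, against 11.62, 11.62, 11.52 and 11.77 in normal obese testes and 11.59 and 11.63 in lean ones. All under-developed arrays were below all normal ones, replicate 4 only by a margin smaller than the spread of the normal arrays. The difference was −2.07 ± 0.88 over all arrays (SE, limma adjusted p = 0.0975) and −2.72 ± 0.77 without replicate 4 (limma adjusted p = 0.0148).

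Prss45 had levels of 8.44, 9.997, 7.26 and 10.81 in under-developed replicates 1 to 4, against 10.80, 10.78, 10.75 and 10.82 in normal obese testes and 10.69 and 10.87 in lean ones. Replicates 1 to 3 were below every normal array and replicate 4 lay among them. The difference was −1.66 ± 0.65 over all arrays (SE, limma adjusted p = 0.0829) and −2.22 ± 0.51 without replicate 4 (limma adjusted p = 0.00556).

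Prss42 had levels of 6.19, 7.19, 5.81 and 7.90 in under-developed replicates 1 to 4, against 7.87, 8.08, 7.99 and 8.04 in normal obese testes and 7.91 and 8.03 in lean ones. The pattern over arrays was the same as in Prss45, with replicate 4 among the normal arrays. The difference was −1.23 ± 0.40 over all arrays (SE, limma adjusted p = 0.0702) and −1.60 ± 0.28 without replicate 4 (limma adjusted p = 0.00137).

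Prss44 had levels of 4.33, 5.32, 5.11 and 6.10 in under-developed replicates 1 to 4, against 5.67, 5.41, 5.93 and 5.96 in normal obese testes and 5.96 and 5.86 in lean ones. Here replicate 1 and not replicate 3 was the lowest, and replicate 4 was above every normal array. All values of Prss44 were below the lowest array median, 6.14. The difference was −0.53 ± 0.32 over all arrays (SE, limma adjusted p = 0.225) and −0.82 ± 0.24 without replicate 4 (limma adjusted p = 0.0166).

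Windows around the starts of Prss54, on chromosome 19, and of Prss45 and Prss46 follow, at chr19:9485809-9486108, chr8:119698463-119698762 and chr8:119707437-119707736, all on the plus strand. Capitals mark TGACG, the core of the cAMP response element, or its reverse CGTCA in Prss54 and Prss45, and TAACNG in Prss46.
Prss54: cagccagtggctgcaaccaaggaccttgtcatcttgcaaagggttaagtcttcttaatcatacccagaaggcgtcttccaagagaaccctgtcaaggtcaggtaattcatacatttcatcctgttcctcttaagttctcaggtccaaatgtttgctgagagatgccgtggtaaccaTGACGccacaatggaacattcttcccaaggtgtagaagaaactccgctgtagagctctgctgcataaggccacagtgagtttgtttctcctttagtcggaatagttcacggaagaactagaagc
Prss45: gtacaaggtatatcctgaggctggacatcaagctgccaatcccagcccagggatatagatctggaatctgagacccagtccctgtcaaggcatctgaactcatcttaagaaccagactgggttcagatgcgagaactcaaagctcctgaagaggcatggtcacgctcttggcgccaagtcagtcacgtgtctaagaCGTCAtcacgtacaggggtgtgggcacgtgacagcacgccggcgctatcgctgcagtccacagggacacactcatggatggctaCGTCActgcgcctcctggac
Prss46: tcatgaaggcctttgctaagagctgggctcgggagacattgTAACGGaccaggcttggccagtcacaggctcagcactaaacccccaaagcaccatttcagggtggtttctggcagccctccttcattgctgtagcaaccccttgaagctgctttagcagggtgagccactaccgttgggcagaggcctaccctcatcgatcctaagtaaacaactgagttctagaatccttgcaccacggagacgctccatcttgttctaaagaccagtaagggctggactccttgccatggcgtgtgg

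Motifs were searched on both strands of every window. TGACG was in the windows of 3 of the 11 members lower by at least 1 log2 unit (Prss40, Prss45 and Prss54), and in 21.2% of all rat windows. TAACNG was in 4 of the 11 (Prss37, Prss39, Prss40 and Prss46), and in 23.6% of all windows. TATAAA was in 1 of the 11 (Prss59), and in 14.2% of all windows. GTTGCC, part of the site of RFX factors, was in 0 of the 11, and in 12.2% of all windows, which says only that these letters are not in those windows.

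Prss47, for which no role is given here, and Tmprss12 complete the members lower by at least 1 log2 unit. TMPRSS12 is a membrane protease of male germ cells that is needed for fertility in male mice.

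Prss47 had levels of 7.67, 9.13, 6.14 and 10.29 in under-developed replicates 1 to 4, against 10.43, 10.42, 10.19 and 10.47 in normal obese testes and 10.39 and 10.42 in lean ones. Replicates 1 to 3 were below every normal array and replicate 4 lay within the normal obese range. The difference was −2.07 ± 0.74 over all arrays (SE, limma adjusted p = 0.0721) and −2.73 ± 0.56 without replicate 4 (limma adjusted p = 0.00308).

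Tmprss12 had levels of 6.91, 7.61, 6.64 and 8.51 in under-developed replicates 1 to 4, against 8.35, 8.40, 8.38 and 8.41 in normal obese testes and 8.41 and 8.41 in lean ones. Replicates 1 to 3 were below every normal array, and replicate 4 was above every normal array. The difference was −0.97 ± 0.35 over all arrays (SE, limma adjusted p = 0.0724) and −1.34 ± 0.20 without replicate 4 (limma adjusted p = 0.000667).

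In the fit without replicate 4, 9 of the 10 measured members of the testis and sperm list fell, against 26.4% of all genes, dim ones included. Of these 10 only Prss41, called TESSP1 in mouse, did not pass. It had levels of 5.44, 5.71, 5.70 and 5.88 in under-developed replicates 1 to 4, against 6.09, 5.76, 5.62 and 5.83 in normal obese testes and 5.94 and 5.84 in lean ones. The groups overlapped, and the difference without replicate 4 was −0.21 ± 0.13 (limma adjusted p = 0.223). All values of Prss41 were below the lowest array median, 6.14, and falls are understated near the low end of the scale. Prss21, Prss43, Prss50, Prss51, Prss52 and Prss55, other testis proteases of this family, were not analysed here.

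**Figure D4:**
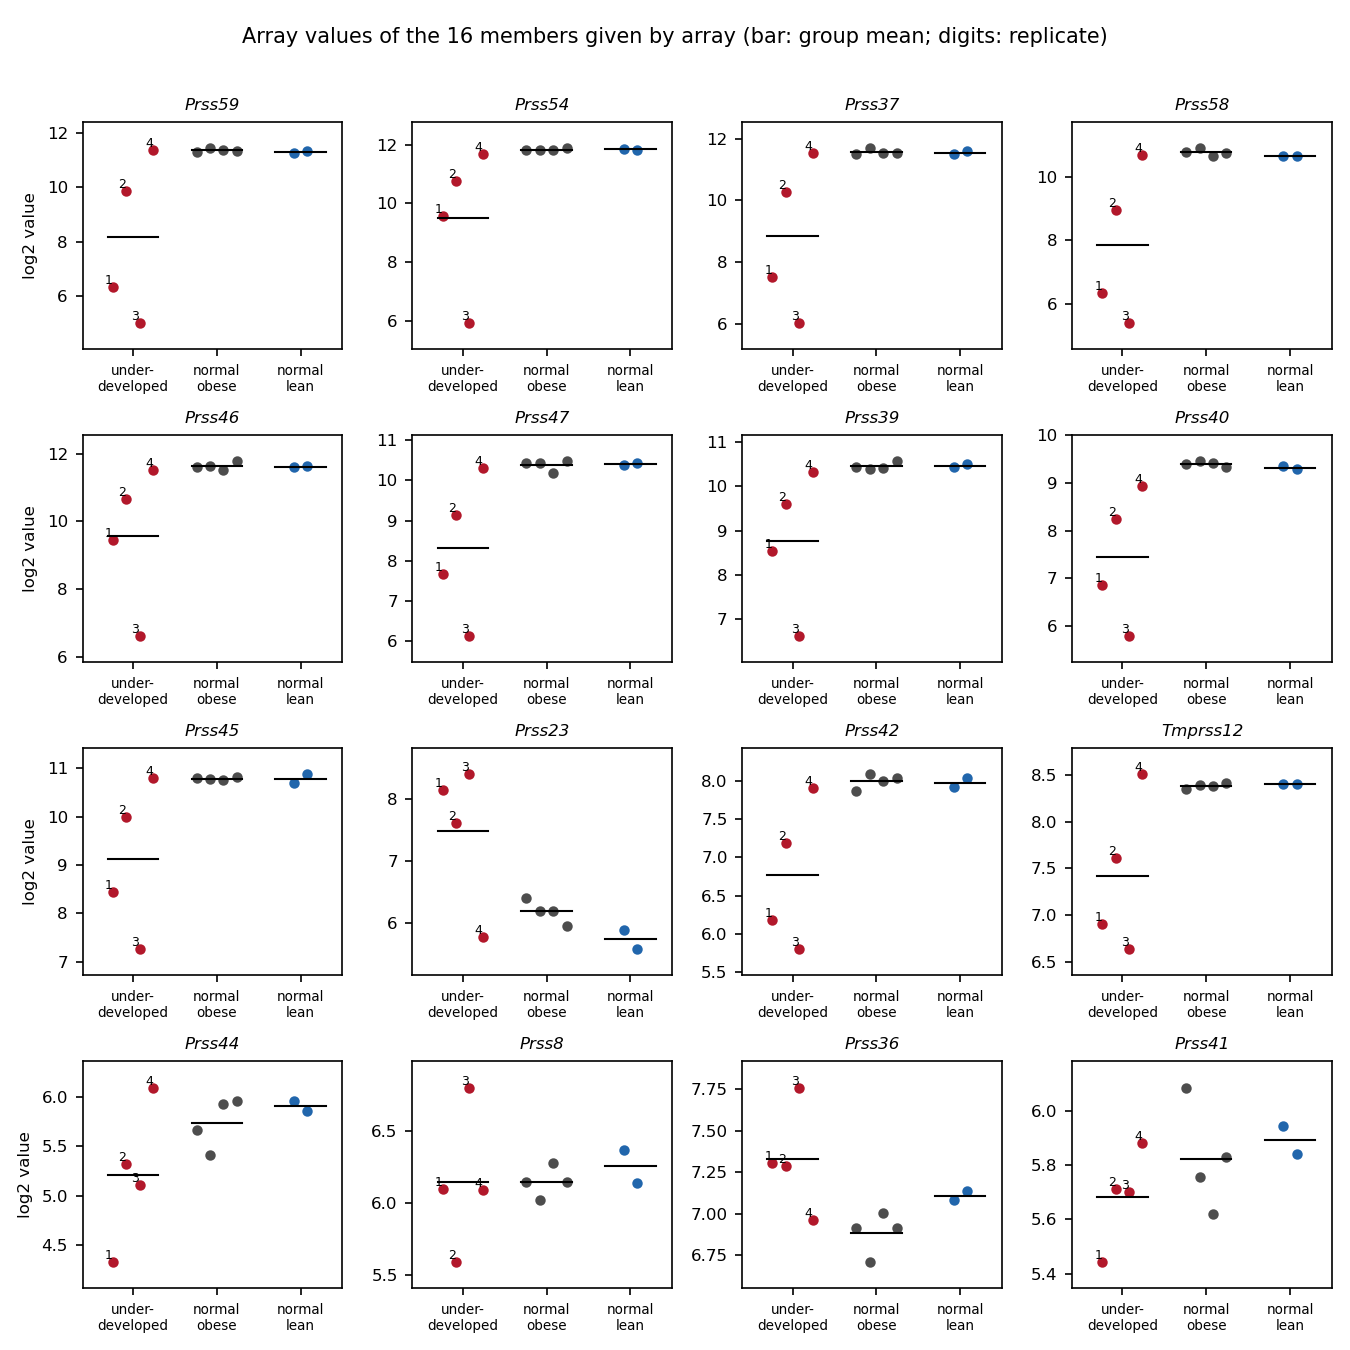
Log2 levels of the 16 members given by array in under-developed obese (red, with replicate numbers), normal obese (grey) and normal lean (blue) testes; bars are group means and each panel has its own axis. In the first 9 panels the spread of the red points is many times that of the grey ones, and in Prss23 replicates 1 to 3 are above all other points.

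Prss23 moved the other way. It encodes a secreted protease known from the ovary, where mouse follicles express it. Prss23 had levels of 8.14, 7.61, 8.39 and 5.77 in under-developed replicates 1 to 4, against 6.41, 6.20, 6.19 and 5.96 in normal obese testes and 5.90 and 5.58 in lean ones. Replicates 1 to 3 were above every normal array, and replicate 4 was below every normal obese array. The difference was 1.29 ± 0.50 over all arrays (SE, limma adjusted p = 0.0800) and 1.86 ± 0.20 without replicate 4 (limma adjusted p = 0.000138), a 3.64-fold higher level. Without replicate 4, Prss23 was the only member higher by at least 1 log2 unit.

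Of 19 epithelial members measured, 1 fell and 1 rose without replicate 4, against 26.4% and 29.6% of all genes. Prss8 and Prss36 ranged over more than 1 log2 unit across the 10 arrays, the other 17 over 0.31 to 0.87, and the list's median difference was 0.08. Prss36, a polyserase with several protease domains in 1 protein, had levels of 7.31, 7.29, 7.76 and 6.96 in under-developed replicates 1 to 4, against 6.91, 6.71, 7.005 and 6.92 in normal obese testes and 7.08 and 7.14 in lean ones. Replicates 1 to 3 were above all normal arrays, and the difference was 0.45 ± 0.16 over all arrays (limma adjusted p = 0.0739) and 0.57 ± 0.14 without replicate 4 (limma adjusted p = 0.00736), with the sign turned to −0.39 and −0.55 when arrays were centred on Sertoli cell markers. Tmprss11e, a membrane protease of skin and airway epithelium, fell by 0.47 on the log2 scale without replicate 4 (limma adjusted p = 0.0244).

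Prss8, or prostasin, which activates the epithelial sodium channel, had levels of 6.10, 5.59, 6.81 and 6.09 in under-developed replicates 1 to 4, against 6.15, 6.02, 6.28 and 6.15 in normal obese testes and 6.37 and 6.14 in lean ones. Replicate 2 was the lowest and replicate 3 the highest of all 10 arrays, so the group spread to both sides of the normal arrays. The difference was −0.0029 ± 0.22 over all arrays (limma adjusted p = 0.993), and 0.015 ± 0.25 without replicate 4 (limma adjusted p = 0.966). Prss8 was the only member with a range of at least 1 log2 unit over the 10 arrays that did not pass the test without replicate 4.

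The remaining 31 members, given here by their ranges, had levels of 3.16 to 8.29 and a range over the 10 arrays of 0.31 to 0.98 each. Their single-array differences in the under-developed group were −0.84 to 0.74. Besides Tmprss11e, Prss38 fell by 0.69 on the log2 scale and Prss30 rose by 0.46 (limma adjusted p = 0.000856 and 0.00612, without replicate 4), and the sign for Prss30 turned to −0.66 when arrays were centred on Sertoli cell markers. None of the 4 measured digestive members (Prss1, Prss3, Prss3b and Tmprss15, the enteropeptidase that activates trypsinogen) passed the test, and their differences were −0.19 to −0.10. The 6 members in a run on chromosome 10 (Prss33, Prss41, Prss32, Prss30, Prss22 and Prss27) differed by −0.38 to 0.74 in single under-developed replicates 1 to 3, and 6 Tmprss11 members on chromosome 14 by −0.66 to 0.52.

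Among the 4 members listed under blood cells and thymus, 0 fell and 1, Prss30, rose, against 26.4% and 29.6% of all genes. Prss30 stands here by that list alone, and no source cell is given here for it. None of 7 mast cell markers passed the test, and of 6 neutrophil markers 1 fell and 0 rose. Their mean levels were 4.54 to 4.69 for mast cell markers in under-developed testes, against 4.46 to 4.61 in normal obese testes.

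Replicate 4 was near the normal testes throughout the family. Its differences from the normal obese mean were −0.47 to 0.36 with a median of 0.03, and 44 of 47 members were within 0.3 log2 units. It was below all 6 normal arrays in 5 members (Prss54, Prss46, Prss39, Prss40 and Prss12), against 18.6% of all genes, and above all 6 in 5 (Tmprss12, Prss44, Tmprss11b, Tmprss6 and Prss3), against 17.8% of all genes. The 4 under-developed arrays were all below the 4 normal obese ones in 5 members (Prss54, Prss46, Prss39, Prss40 and Tmprss15), against 10.4% of all genes, and all above in 0, against 7.44%. Without replicate 4 these counts were 14 below, against 27.8%, and 3 above, against 30.7%.

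The fallen members did not keep a constant ratio between arrays. The difference in replicate 1 divided by that in replicate 3 ranged from 0.38 in Prss54 to 0.85 in Tmprss12 among the 11 members lower by at least 1 log2 unit. Prss46 had 0.43, Prss39 0.50, Prss47 0.64, Prss45 0.67, Prss40 0.71, Prss37 0.73, Prss59 0.79, Prss58 0.82 and Prss42 0.83. All 11 were lower in replicate 3 than in replicate 1, by between 0.27 log2 units in Tmprss12 and 3.64 in Prss54. Among the germ cell markers the same ratio was 0.33 for Ddx4 and 0.36 for Dazl, RNA-binding proteins of germ cells, and 0.55 for Sycp3 and 0.67 for Sycp1, of the meiotic chromosome axis. It was 0.66 for Tnp1, 0.95 for Tnp2, 1.06 for Prm1 and 1.04 for Prm2, which package the DNA of spermatids, 0.87 for Spem1 and 0.89 for Piwil1. These ratios are values of 2 arrays with no test. In replicate 3, Prss59 (5.01), Prss58 (5.41), Prss40 (5.79), Prss42 (5.81), Prss54 (5.94), Prss37 (6.03) and Prss47 (6.138) were below the lowest array median, 6.143. Falls are understated near the low end of the scale, and the part of this in the ratios was not tested.

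**Figure D5:**
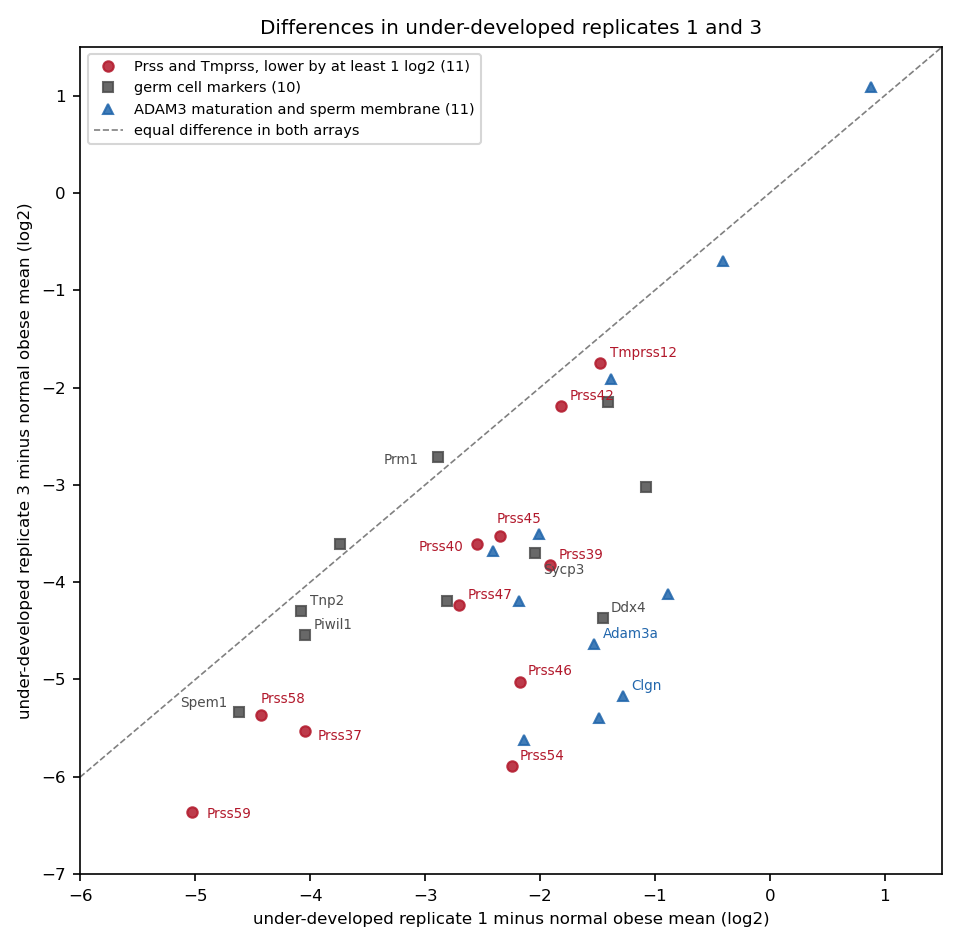
Log2 difference from the normal obese mean in under-developed replicate 1 (horizontal) and replicate 3 (vertical) for the 11 members lower by at least 1 log2 unit (red), 10 germ cell markers (grey) and 11 genes of the ADAM3 maturation list (blue); the dashed line marks equal differences. Prss54 and Prss46 lie far below the line beside Adam3a and Clgn, and Tmprss12 and Prss42 lie nearest to it among the members.

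Genes tied to these proteases were followed in lists. The ADAM3 list holds genes needed in mouse for ADAM3 to reach the sperm surface. Of 11 measured, 7 fell and 1, Tpst2, rose without replicate 4, against 26.4% and 29.6% of all genes. Adam2, the partner of ADAM3, differed by −2.14, −0.70, −5.62 and 0.01 in the 4 under-developed replicates, and by −2.82 in the fit without replicate 4 (limma adjusted p = 0.0294). Calr3, a testis chaperone, differed by −2.41, −1.13, −3.68 and −0.17, and by −2.41 in that fit (limma adjusted p = 0.00263). Tex101, a germ cell surface protein, differed by −2.18, −0.70, −4.19 and −0.07, and by −2.36 in that fit (limma adjusted p = 0.0132). Pdilt, another chaperone, was lower in replicate 3 above all, at −5.39, and did not pass (limma adjusted p = 0.0584).

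Of 31 other serine proteases measured, 3 fell and 9 rose without replicate 4, against 26.4% and 29.6% of all genes, so the share that rose was near that of all genes. The falls were in Acr, the acrosomal protease acrosin, Pcsk4, a proprotein convertase of sperm, and Klk10. Pcsk4 differed by −2.46, −1.08, −3.46 and −0.03 in the 4 under-developed replicates, and by −2.33 in the fit without replicate 4 (limma adjusted p = 0.00217). The rises were led by Htra1, a secreted protease that cuts matrix proteins, which differed by 3.67, 3.02, 4.12 and −0.18 and by 3.60 in that fit (limma adjusted p = 5e-05). Plat, the tissue plasminogen activator, differed by 2.51, 2.00, 2.93 and −0.06 and by 2.48 in that fit (limma adjusted p = 8.6e-05).

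Of 8 Kunitz and Kazal protease inhibitors measured, 0 fell and 3 rose without replicate 4, against 26.4% and 29.6% of all genes. Spint2, a membrane inhibitor of trypsin-like proteases, differed by 2.04, 1.52, 2.37 and 0.03 in the 4 under-developed replicates and by 1.98 in that fit (limma adjusted p = 9.1e-05). Spint3 differed by 1.14, 1.27, 2.07 and −0.29 and by 1.49 in that fit (limma adjusted p = 0.000864). Spink2, an acrosin inhibitor of the acrosome, differed by −1.34, −0.02, −4.82 and −0.09 and did not pass (limma adjusted p = 0.0861).

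Of 9 protease targets measured, 2 fell (F2rl1 and Mst1) and 4 rose (F2r, Agrn, Hgf and Met) without replicate 4, against 26.4% and 29.6% of all genes. F2r, a receptor switched on by thrombin, differed by 2.48, 1.55, 2.49 and −0.14 in the 4 under-developed replicates and by 2.17 in that fit (limma adjusted p = 0.000245). Met, the receptor of hepatocyte growth factor, differed by 2.14, 1.34, 2.62 and −0.18 and by 2.03 in that fit (limma adjusted p = 0.000436). In the fit of all 4 under-developed arrays, 0 genes of each of these lists passed.

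No member was called between normal testes of obese and lean rats. In limma, 0 of 47 members passed, and 0 had an unadjusted p under 0.05, against 0.0% and 0.44% of all genes. That fit shares 1 spread per gene over the 3 groups, the under-developed arrays included. A fit of only the 2 normal groups also called 0 members, with 2 higher and 4 lower at an unadjusted p under 0.05, against 3.18% of all genes higher and 3.1% lower. With array weights, likewise 0 members were called, and 2 were higher and 5 lower at an unadjusted p under 0.05, against 2.99% and 3.96% of all genes. Differences between normal obese and normal lean testes were −0.27 to 0.45, and 45 of 47 members were within 0.3 log2 units. The largest was that of Prss23, which averaged 6.19 ± 0.19 in normal obese (SD, n = 4) and 5.74 ± 0.22 in normal lean testes (SD, n = 2). The standard error of this difference in the fit of all 10 arrays was 0.61, and the SD of Prss23 over the under-developed arrays, which enter that fit, was 1.19.

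Against the lean testes, 0 of 47 members were called with all 4 under-developed arrays, where 0.0% of all genes were, and 6 were lower and 2 higher at an unadjusted p under 0.05, against 14.3% and 17.5% of all genes. Without replicate 4, 13 members were lower and 1 was higher, against 23.2% and 25.6% of all genes. This comparison shares the under-developed arrays with the one against normal obese testes. The difference of Prss59 was −4.23 ± 1.11 against lean testes (SE, limma adjusted p = 0.0126), that of Prss58 was −3.77 ± 0.81 (limma adjusted p = 0.00532), that of Prss37 was −3.61 ± 0.95 (limma adjusted p = 0.0127) and that of Prss23 was 2.31 ± 0.23 (limma adjusted p = 0.000235), all without replicate 4. The 13 were the members that fell against normal obese testes, other than Tmprss11e.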

How the data were processed

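Trizol was used to extract total RNA and the Affymetrix WT PLUS kit to label it, per the labels' protocols, with 1 array per sample. The authors deposited log2 values per probe set, made with RMA per the submitters' processing notes, whose settings, version and genome build are not given in the sources used here. RMA makes the arrays' distributions alike, so levels are relative to the other genes of an array, and log2 values near the low end understate falls. No detection call or scan date was used here.

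Of 36685 probe sets, 18511 carried 1 gene symbol in the platform annotation, 575 several and 17599 none. Where a gene had several probe sets (291 genes), that with the highest mean over the 10 arrays was kept, which left 18166 genes. Array medians were 6.14 to 6.38. The number of arrays, above all the 2 lean ones, limits the precision. All 47 members matched RefSeq by gene number with the same symbol, and 4 probe sets with a rule symbol among several symbols were not used. Gene order and promoter windows came from RefSeq, GRCr8.

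Groups came from the sample titles. A mean per group was fitted over all 10 arrays by lmFit and eBayes of limma 3.58.1, under R 4.3.3, with Benjamini-Hochberg adjustment over all genes and a threshold of 0.05. The fit without under-developed replicate 4 was added after its values were seen. The members and gene lists were chosen with earlier results of these data known. Members spanning at least 1 log2 unit over the arrays, or in the testis and sperm list, are given by array. Genes of the other lists were named for their difference over all arrays. Protein sequences, which the rule for named genes also foresaw, were not used here. The fit was tested on simulated data with 200 changed genes. Between normal obese and lean testes it called 31% of changes of 1 log2 unit and 93% of those of 3. Between under-developed and normal obese testes these shares were 53% and 93%, and without replicate 4 they were 62% and 98%. Each simulated gene had 1 spread for all arrays and the same shift in every array of a group. In the data the SD of Prss59 was 2.98 in under-developed and 0.06 in normal obese testes. The simulated shares do not hold for such genes, so changes of 1 log2 unit and larger ones could be missed. Alternatives covered scaling, background offset, filters on dim genes, probe set choice, moderation, array weights, the samples fitted, a replicate block and leaving out each array. Python 3.11.15, pandas 2.3.3, numpy 2.4.6, scipy 1.17.1 and matplotlib 3.10.9 were used for summaries and plots.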

Additional observations from a re-analysis of the deposited data

Results flagged for a closer look

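In 3 of 94 groups of 4 arrays tested (the under-developed and the normal obese arrays of each member), 1 array stood apart from the other 3, where chance gives about 1 in 20 groups. Tmprss11f was 3.46 log2 units in under-developed replicate 2, below the other under-developed arrays at 3.76 to 3.80. Prss16, a thymus-specific protease, was 4.75 in normal obese replicate 4, below the other normal obese arrays at 5.05 to 5.09. Tmprss6, a liver protease that controls iron uptake, was 5.47 in normal obese replicate 2, above the other normal obese arrays at 5.25 to 5.29. All of these are low levels, and none of the 3 genes was called in the fit of all 10 arrays or, on the deposited values, in that without under-developed replicate 4.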

How the results depend on the processing

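The calls turned on under-developed replicate 4. Against normal obese testes, leaving out 1 array at a time gave 0 to 14 members lower and 0 to 3 higher, with 14 and 3 only without that replicate. Against lean testes it gave 0 to 13 lower and 0 to 1 higher, with 13 and 1 only without it. In the fits without it, 4790 of 18166 genes were lower and 5381 higher against normal obese testes, and 4220 and 4646 against lean ones. Array weights gave 14 lower and 3 higher against normal obese testes, and 13 lower and 1 higher against lean ones. With them, 4711 of all genes were lower and 5151 higher against normal obese testes, and 4659 and 4961 against lean ones. With replicate 4 left out, leaving out under-developed replicate 1, 2 or 3 as well gave 13 to 14 lower and 3 to 5 higher against normal obese testes, with 5 higher without replicate 2. Against lean testes it gave 11 to 14 lower and 1 to 3 higher, with 3 higher without replicate 2. In these fits, 4438 to 4971 of all genes were lower and 4887 to 6336 higher against normal obese testes. Against lean testes, 3695 to 4760 were lower and 4282 to 5768 higher.

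Centring arrays on Sertoli cell markers, of which 6 of 9 rose and 1 fell without replicate 4, moved the median of all genes to −0.78 over all arrays and −1.05 without replicate 4. It gave 35 of 47 members lower against normal obese testes over all arrays, where 10648 of 18166 genes were lower. Without replicate 4 it gave 46 members lower and 1 higher against each normal group, the higher one being Prss23 against normal obese testes. There, 14937 of all genes were lower against normal obese and 14788 against lean testes, so most genes shifted with the members. The members' median became −0.85 (−1.16 without replicate 4) against normal obese testes and −0.98 (−1.27) against lean ones. Centring on array medians gave −0.15 and −0.23 without replicate 4. A filter at the 25th percentile of level gave −0.14 (−0.21) against normal obese and −0.24 (−0.28) against lean testes. A filter at the median gave −1.81 (−2.33) and −1.78 (−2.29), beside −0.09 (−0.10) and −0.07 (−0.08) over all genes kept. Both filters keep fewer dim members. They act on the mean over all arrays, most of them normal, and so favour members high in normal testes. The median filter left 1 member higher against normal obese and 0 against lean testes without replicate 4, where 3276 and 3080 of 9083 genes were higher.

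Under Sertoli centring Prss36 turned to −0.39 (−0.55 without replicate 4) and Prss30 to −0.66 without replicate 4. Prss8, near 0, turned to 0.013 with an offset of 50 and ranged from −0.22 to 0.18 with 1 array left out. With a replicate block, 0 members were called lower and 0 higher, as without it. Same-numbered arrays of the 2 obese groups correlated at 0.08, 0.01, 0.02 and 0.26 in their deviations from the group means. Differently numbered ones correlated at −0.29 to 0.19. Such values cannot show whether the numbers pair the samples, since the under-developed arrays deviate mainly by how unlike they are, and the labels do not say. Among single genes, 441 of 493 values kept direction and call, 42 gained a call, 2 lost it (Tmprss11e without replicate 1 or 3 as well as 4) and 8 changed sign.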
